A study of Mus musculus with 5 samples.

Results

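Interferon-stimulated genes are transcripts that cells raise after an interferon has bound its receptor. A set of 36 such mouse genes was followed here in poly(A) RNA from retinas at postnatal day 7. The members were found by matching their symbols to the Ensembl gene IDs of the deposited count table, and all 36 matched, out of 43432 IDs in all. The study set 2 libraries labelled Mettl14 cko (a and b) against 3 control libraries (a, b and c). The abbreviation cko is commonly read as conditional knockout. The labels give no allele, Cre line, genetic background, sex or number of animals per library, and the name of the deposited table adds Six3 and M3 to M14 without saying what they stand for, so the exact genotype of both groups is not known here, nor whether a deletion of Mettl3 was part of it. Nor is it stated that the libraries came from separate animals, so p-values measure the spread between these samples, which may be partly technical.

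The libraries held 25912136 and 26513127 gene counts in cko a and b, against 24315693 to 27100918 in the controls. Mettl14, the RNA-binding partner of the m6A methyltransferase Mettl3, was at 55.6 and 44.8 CPM (read counts relative to the scaled library size) in the cko-labelled libraries a and b, against 41.5, 46.7 and 38.7 CPM in control a, b and c. Its level was thus not lower in the libraries that carry its name: edgeR put the log2 fold change at 0.25 with an SE of 0.20 and an adjusted p of 0.640. Mettl3 was at 65.6 and 52.0 CPM in cko a and b, against 72.4, 71.3 and 66.0 CPM in the controls. A whole-gene count does not check a deletion of single exons, and differences are therefore given by library label and not by genotype. Rod genes marked all 5 libraries as retina: 8 of them summed to 14080 and 9695 CPM in cko a and b, against 14400, 11970 and 15410 CPM in the controls.

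Type I interferons signal through a receptor of the chains Ifnar1 and Ifnar2 and the kinases Jak1 and Tyk2. The kinases phosphorylate Stat2, which joins Irf9 in a transcription factor complex that binds the interferon-stimulated response element, a repeat of GAAA letters in target promoters. Cytosolic sensors of viral or misplaced cellular RNA stand upstream of interferon production and are themselves induced by it, so that a small signal can be amplified. In the central nervous system the response is best known from microglia, but neurons, glia and endothelial cells can mount it too.

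The members were set apart in 1 library. Summed over all 36, their level was 83.9 CPM in the library labelled cko a and 131.5 CPM in the library labelled cko b, against 72.7, 82.1 and 75.4 CPM in control a, b and c. The sum in cko b lay above every other library, while cko a lay slightly above the highest control. As groups, the sum was 107.7 ± 33.7 CPM (SD, n = 2) in the libraries labelled cko and 76.7 ± 4.86 CPM (SD, n = 3) in the controls, so the spread between the 2 cko libraries was larger than the difference between the groups. The library labelled cko b was the highest of the 5 for 25 of the 36 members, and control c, the next most frequent, for 5. Cko b was the highest for 23.2% of all genes tested. It was at least 2-fold above the next library for 14 of the 36, a distance that cko a and each control reached for 0 members. Over all genes tested, cko b reached this distance for 74 genes (0.434%) and control c for 103, so such a lead was not particular to cko b. Cko b lay above cko a for 33 of the 36, where it did so for 46.6% of all genes tested. The 36 include 9 members with too few reads for the test, of which Dhx58, Oas1a, Oasl1, Mx2 and Gbp2 are among the 14.

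**Figure D1:**
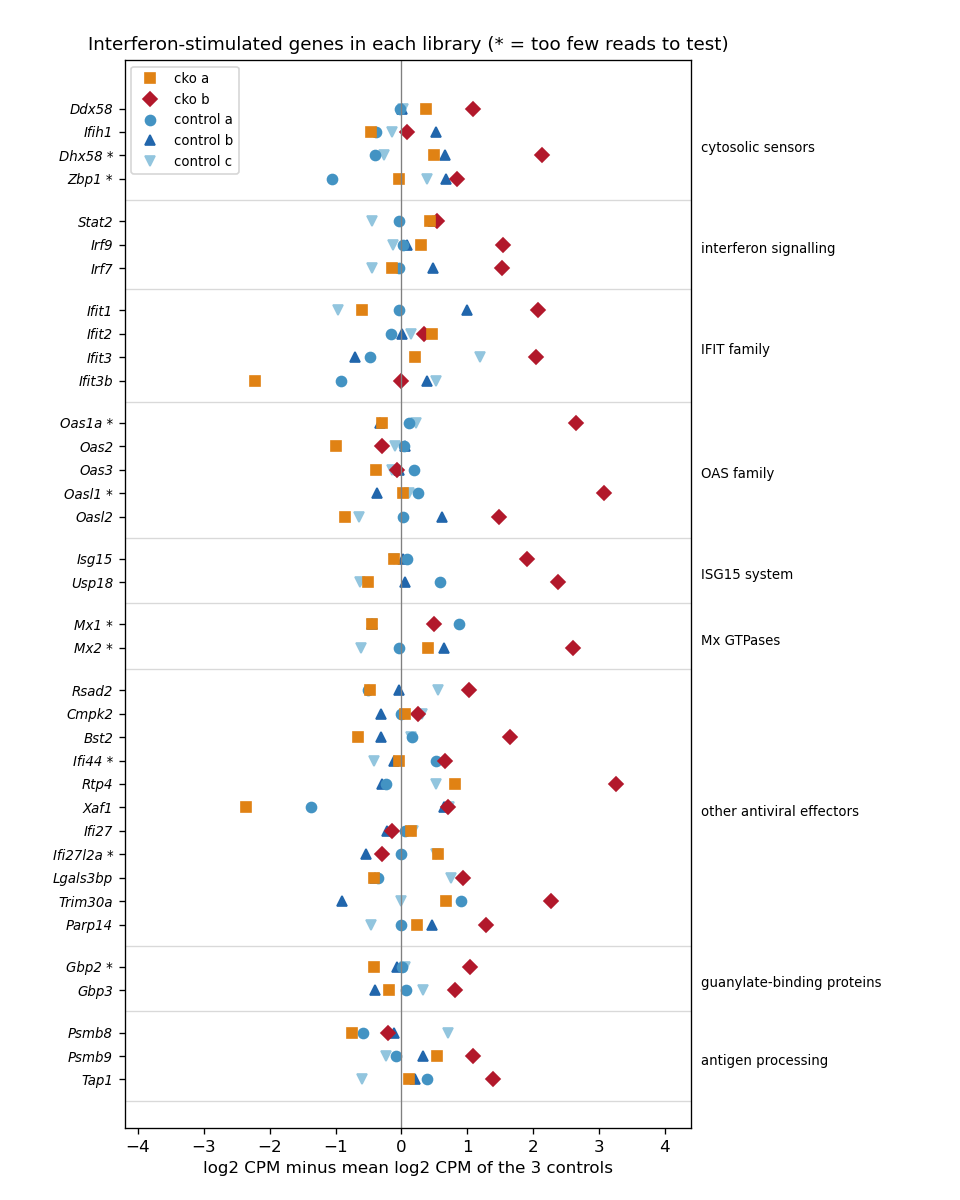
Each row is 1 of the 36 members, ordered by role, and each symbol is 1 library; the x axis gives log2 CPM (prior count of 2) minus the mean log2 CPM of the 3 controls. The red diamonds of cko b lie to the right for most rows and are the highest for 25 of 36, whereas the orange squares of cko a lie within the range of the controls for 20 of 36.

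Of the 36, 27 had enough reads to be tested, and 25 of these reached the filter's level in at least 2 of the 4 libraries other than cko b. The other 2, Rtp4 and Ifit1, passed the filter only with the reads of cko b. Both are counted in the shares of cko b that follow, so those shares are in part set by the filter. Among the 27, cko b was the highest library for 18, or 66.7%, where it was the highest for 23.2% of all 17039 genes tested. It was at least 2-fold above the next library for 9 of the 27, or 33.3%, against 0.434% of all genes tested, which is 74 genes in number. Library cko a was the highest for 1 of the 27, against 22.9% of all genes tested. The median log2 difference of the 27 from the control mean was 1.08 in cko b and -0.14 in cko a, against -0.02, 0.02 and -0.01 in control a, b and c. Over all genes tested the same medians lay between 0.00 and 0.01. These counts describe 5 libraries and carry no test, since cko b was singled out after its values were seen.

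**Figure D2:**
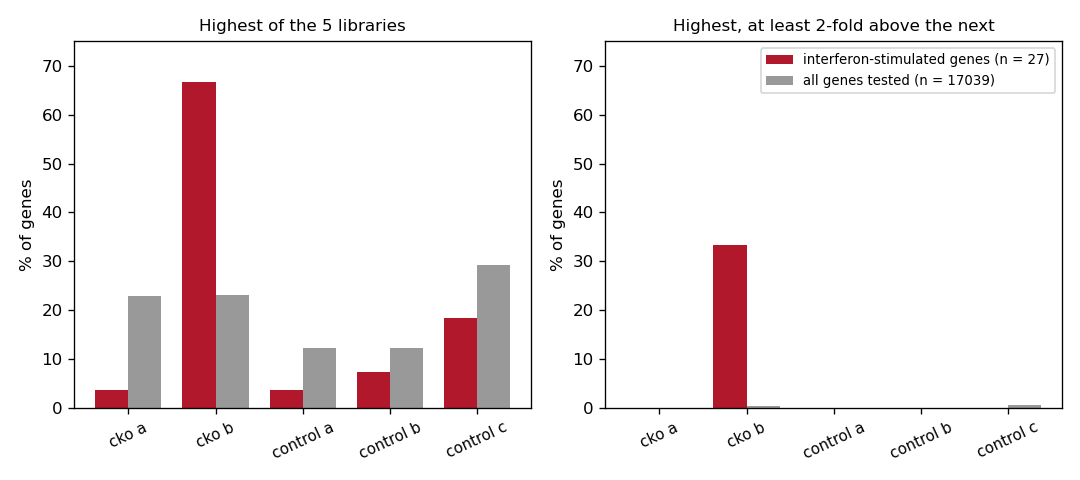
Bars give the share of genes, in percent, for which each library was the highest of the 5 (left) and for which it was the highest by at least 2-fold (right), for the 27 members tested in red and for all 17039 genes tested in grey. The red bar of cko b stands at 66.7% on the left and 33.3% on the right, and the grey bar of cko b at 23.2% and 0.434%. The 27 include Rtp4 and Ifit1, which passed the low-count filter only with the reads of cko b.

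The comparison between the groups called none of the members. At an adjusted p under 0.05 over all genes tested, edgeR called 0 members higher, where it called 0.00587% of all genes tested higher, and 0 members lower, where it called 0.0939% lower. The lowest adjusted p of a member was 0.377, for Rtp4. At an unadjusted p under 0.05, 6 of the 27 members were higher in the libraries labelled cko, or 22.2%, against 5.45% of all genes tested, and 0 were lower, against 5.36%. The 6 were Rtp4, Irf9, Ddx58, Trim30a, Isg15 and Usp18, of which Rtp4 passed the low-count filter only through the libraries labelled cko. DESeq2, which gave 28 members an adjusted p, also called 0 of them, with 6 at an unadjusted p under 0.05; it called 0.166% of its genes higher. Limma-voom called 0, with 4 at an unadjusted p under 0.05. With no filter on low counts edgeR called 4 members higher, Rtp4, Oasl1, Usp18 and Irf9, in a fit that called 0.415% of genes higher. The median log2 fold change of the 27 members was 0.68, with 21 above 0 and 6 below, while the median of all genes tested was -0.01.

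Both cko libraries lay above all 3 controls for 5 of the 27 members, or 18.5%, close to the 15.8% of all genes tested for which this held. Both lay below all controls for 1 member, Oas2, against 13.7% of all genes tested. Taken by itself, cko a lay above all 3 controls for 5 of the 27 members (18.5%), within their range for 13 (48.1%) and below them for 9 (33.3%). The same 3 shares over all genes tested were 29.8%, 40.6% and 29.6%. Leaving out each cko library shows how far the group result rested on cko b. Without cko a, edgeR placed 13 of the same 27 members higher at an unadjusted p under 0.05, against 5.28% of all genes in that fit, with a median log2 of 1.09. In that fit 5 more members, Dhx58, Oas1a, Oasl1, Mx2 and Gbp2, passed the low-count filter only through cko b, with 18 to 44 reads there and at most 9 in a control, so no count over them is a result. None of the 32 was called, with a lowest adjusted p of 0.0577, where 0.0449% of genes were called higher. Without cko b it placed 0 members higher, against 3.61%, and 3 lower, namely Oas2, Ifit3b and Xaf1, against 9.10%, with a median log2 of -0.22; 0 were called in either direction, where 0.00566% of genes were called higher. In each of these fits the single remaining cko library is assumed to vary as the controls do.

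Among the cytosolic sensors, Ddx58, which encodes the RNA helicase RIG-I, was at 4.49 and 7.37 CPM in the cko-labelled libraries a and b, against 3.39, 3.47 and 3.49 CPM in control a, b and c. Both cko libraries lay above controls that differed little from each other, and cko b was 1.64-fold above cko a. The log2 fold change was 0.78 (SE = 0.29, unadjusted p = 0.0197, edgeR adjusted p = 0.433), with 1.09 without cko a and 0.38 without cko b. Ifih1, which encodes the long double-stranded RNA sensor MDA5, was at 0.866 and 1.31 CPM in cko a and b, against 0.914, 1.79 and 1.11 CPM in the controls, so cko b lay within the control range. Dhx58, which encodes the regulatory helicase LGP2, had too few reads for the test, with 7 and 29 reads in cko a and b against 3, 9 and 3 reads in the controls. Its rate in cko b was 5.24 times that of the pooled controls, with an exact 95% interval of 2.72 to 10.5 that covers counting error between these libraries only. Cko b was picked after its values were seen, so this interval is not a test. Zbp1, a sensor of left-handed nucleic acid helices, had 2 and 6 reads against 0, 5 and 3. The 3 helicases thus did not stand alike in cko b: Ddx58 and Dhx58 were the highest there and Ifih1 was not.

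Among the signalling genes, Irf9, the DNA-binding partner of Stat2, was at 5.91 and 14.3 CPM in the cko-labelled libraries a and b, against 4.95, 5.16 and 4.42 CPM in the controls. Cko b was 2.94 times the control mean, cko a 1.22 times, and the groups did not overlap. The log2 fold change was 1.06 (SE = 0.34, unadjusted p = 0.00892, edgeR adjusted p = 0.433), with 1.55 without cko a and 0.29 without cko b. Stat2, the most abundant member by reads, was at 27.6 and 29.5 CPM in cko a and b, against 19.7, 28.3 and 14.9 CPM in the controls, so cko a lay below control b. Its log2 fold change was 0.44 (SE = 0.27, with an edgeR adjusted p = 0.539). Irf7, the factor that drives the late wave of interferon-alpha transcription, was at 0.669 and 2.29 CPM in cko a and b, against 0.724, 1.07 and 0.530 CPM in the controls. Its 65 reads in cko b compare with 17 in cko a, and its log2 fold change of 0.93 became -0.22 without cko b. Of these partners, then, Irf9 stood apart in cko b more than Stat2, which was 1.41 times the control mean there.

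The IFIT genes encode proteins that bind viral or unmodified RNA ends, and they lie together on chromosome 19 between positions 34550694 and 34650009 (GRCm38). Ifit2, which had the most reads of them, was at 16.6 and 15.3 CPM in the cko-labelled libraries a and b, against 10.8, 12.1 and 13.4 CPM in the controls. It is the 1 tested member for which cko a was the highest library, and its log2 fold change was 0.40 (SE = 0.22, with an edgeR adjusted p = 0.509). Ifit1 had 2 and 26 reads in cko a and b, against 4, 11 and 1 in the controls, and Ifit3 had 12 and 54 against 7, 6 and 23. Both were the highest in cko b, and their log2 fold changes of 1.29 and 1.30 became -1.32 and -0.04 without it. Ifit3b had 0 and 8 reads against 3, 11 and 10, with a log2 fold change of -1.07 (SE 0.94). Ifit3 and Ifit3b are close copies whose reads may be shared or lost in counting, so their split is uncertain; the same holds for Oas1a, Mx1, Mx2, Gbp2, Gbp3 and Ifi27l2a, which also have close relatives.

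The OAS genes encode enzymes that make 2′-5′ oligoadenylate on double-stranded RNA, while the OAS-like proteins Oasl1 and Oasl2 act in other ways. Oas2 was at 2.28 and 3.74 CPM in the cko-labelled libraries a and b, against 4.72, 4.76 and 4.33 CPM in the controls. Both cko libraries lay below all controls, with a log2 fold change of -0.61 (SE = 0.30, with an edgeR adjusted p = 0.480). Oas3 was at 0.433 and 0.564 CPM against 0.686, 0.573 and 0.530 CPM. Oasl2 was at 0.669 and 3.70 CPM in cko a and b, against 1.30, 2.01 and 0.795 CPM in the controls, so cko b was the highest and cko a the lowest of the 5 libraries. Oasl1 and Oas1a, left out of the test for low counts, showed the widest gaps of the family. Oasl1 had 3 and 44 reads in cko a and b, against 4, 2 and 3 in the controls, and its rate in cko b was 13.2 times that of the pooled controls (exact 95% interval 6.38 to 30.9, counting error only). Oas1a had 1 and 23 reads against 2, 1 and 2, a ratio of 12.5 (interval 4.63 to 42.0). These genes were given intervals after their reads in cko b were seen, so neither interval is a test. Of the other untested members, Zbp1 (0.581 to 6.68), Mx1 (0.151 to 15.8), Ifi44 (0.484 to 7.08) and Ifi27l2a (0.175 to 2.27) had intervals that included 1. The intervals of Dhx58, Mx2 (4.02 to 49.5) and Gbp2 (1.24 to 4.21) did not. Within the family, cko b thus held the highest level of Oas1a, Oasl1 and Oasl2 and not of Oas2 and Oas3.

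Isg15, a ubiquitin-like protein that is joined to other proteins, and Usp18, the protease that removes it and also dampens receptor signalling, were both high in cko b alone. Usp18 was at 0.394 and 3.35 CPM in the cko-labelled libraries a and b, against 0.914, 0.609 and 0.354 CPM in the controls. Isg15 was at 0.354 and 1.66 CPM in cko a and b, against 0.419, 0.394 and 0.354 CPM in the controls. Cko b was 3.66-fold and 3.96-fold above the next library, while cko a lay within the control range for Usp18 and level with the lowest control for Isg15. The log2 fold changes were 1.57 (SE 0.69; unadjusted p = 0.0425, edgeR adjusted p = 0.453) for Usp18 and 1.37 (SE 0.60; unadjusted p = 0.0413, edgeR adjusted p = 0.451) for Isg15. Without cko b they were -0.67 and -0.14. The dynamin-like GTPases Mx1 and Mx2, the second of which is annotated as a polymorphic pseudogene, were too low for the test. Mx2 had 2 and 18 reads in cko a and b, against 1, 3 and 0 in the controls. Mx1 had 0 and 2 reads against 3, 0 and 0.

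**Figure D3:**
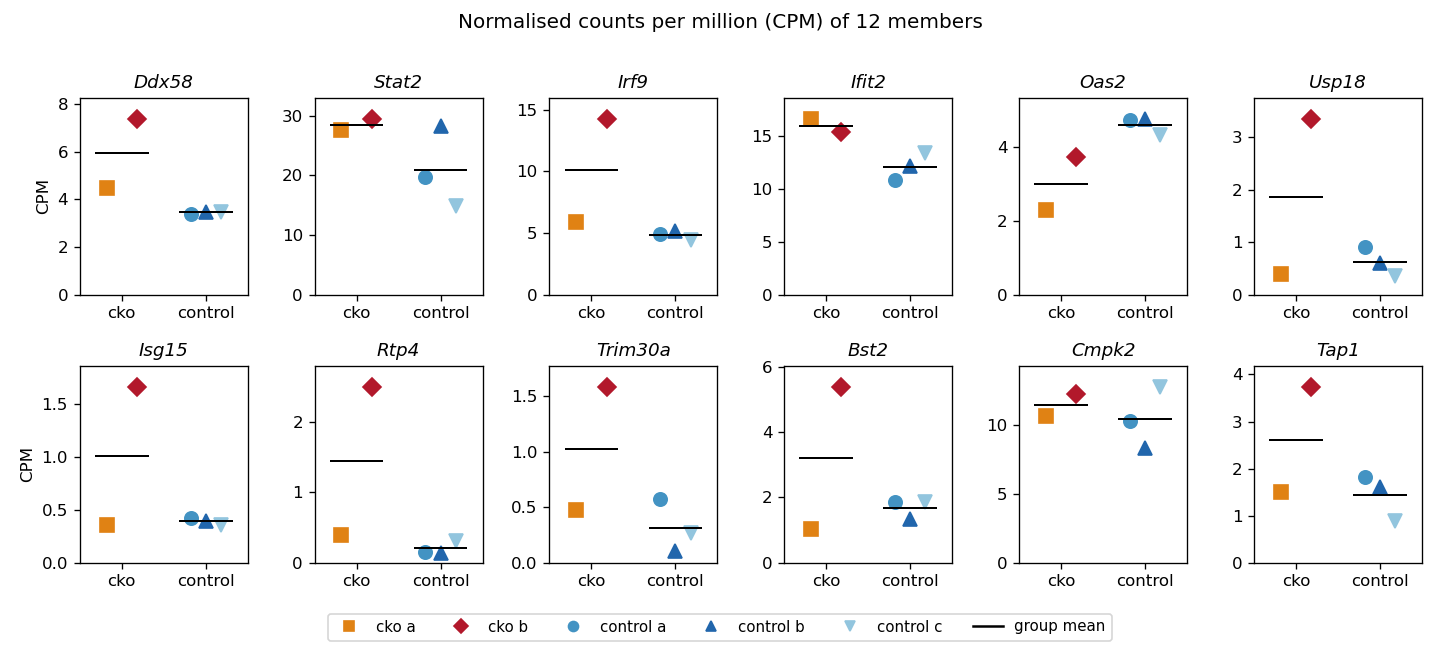
CPM of 12 members, with the libraries labelled cko left of the controls in each panel; symbols are single libraries, black lines are group means, and every y axis starts at 0. In Irf9, Usp18, Isg15, Rtp4, Trim30a, Bst2 and Tap1 cko b stands above the other 4 libraries, whereas Stat2, Ifit2, Oas2 and Cmpk2 show no such gap.

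Of the other effectors, Rtp4, a receptor transporter protein that interferon induces, had the largest fold change of the members tested. It was at 0.394 and 2.50 CPM in the cko-labelled libraries a and b, against 0.152, 0.143 and 0.309 CPM in the controls. Those values rest on 10 and 71 reads in cko a and b, against 4, 4 and 7 in the controls, and 13.9% of the exon length is shared with Gm45338 on the same strand. No control reached the filter's minimum count of 10. Rtp4 was thus tested only through the libraries where it was high, and its rank among the members rests on that. Both cko libraries lay above all controls, cko a only slightly. The log2 fold change was 2.86 (SE = 0.72, unadjusted p = 0.00216, edgeR adjusted p = 0.377), with 3.63 without cko a and 0.98 without cko b. Trim30a, a tripartite motif protein that restrains inflammatory signalling, was at 0.472 and 1.59 CPM in cko a and b, against 0.571, 0.107 and 0.265 CPM in the controls. Its log2 fold change was 1.71 (SE = 0.67, unadjusted p = 0.0255, edgeR adjusted p = 0.439), and cko a lay within the control range. Bst2, which encodes the membrane protein tetherin that holds budding virus at the cell surface, was at 1.02 and 5.396 CPM in cko a and b, against 1.87, 1.33 and 1.86 CPM in the controls. Cko b was 2.89-fold above the next library and cko a was the lowest of all, so the log2 fold change of 0.94 (SE 0.53) became -0.71 without cko b.

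Cmpk2, a mitochondrial nucleotide kinase and the most abundant of this group by reads, was at 10.7 and 12.3 CPM in the cko-labelled libraries a and b, against 10.3, 8.31 and 12.8 CPM in the controls. The groups overlapped, with a log2 fold change of 0.13 (SE = 0.25, with an edgeR adjusted p = 0.85). Rsad2, which encodes the radical enzyme viperin and lies beside Cmpk2 on chromosome 12, was at 0.354 and 1.13 CPM against 0.343, 0.501 and 0.795 CPM. Lgals3bp, a secreted galectin-binding glycoprotein, was at 2.28 and 5.89 CPM in cko a and b, against 2.36, 2.29 and 5.21 CPM in the controls, so control c lay near cko b. Parp14, an ADP-ribosyltransferase, was at 0.906 and 1.98 CPM against 0.762, 1.07 and 0.530 CPM. Ifi27, a mitochondrial protein, did not separate the libraries, at 2.80 and 2.26 CPM in cko a and b, against 2.59, 2.15 and 2.83 CPM in the controls. Xaf1, a pro-apoptotic protein, had 0 and 16 reads in cko a and b, against 2, 15 and 13 in the controls. Ifi44 and Ifi27l2a had totals of 14 and 27 reads over the 5 libraries and were not tested. Of these 11 effectors, then, cko b stood at least 2-fold above the next library for Rtp4, Trim30a and Bst2.

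The remaining members act in cell-autonomous defence and in antigen presentation, and many of them also respond to interferon gamma. Of the guanylate-binding proteins, Gbp3 was at 0.591 and 1.27 CPM in the cko-labelled libraries a and b, against 0.724, 0.501 and 0.884 CPM in the controls, and Gbp2, not tested, had 6 and 22 reads against 9, 9 and 8. Tap1, a subunit of the peptide transporter that loads class I molecules, was at 1.496 and 3.74 CPM in cko a and b, against 1.83, 1.61 and 0.884 CPM in the controls. Cko b was 2.04-fold above the next library, cko a lay within the control range, and the log2 fold change was 0.86 (SE = 0.44, with an edgeR adjusted p = 0.486). Psmb9 and Psmb8, catalytic subunits of the immunoproteasome, differed from each other. Psmb9 was at 0.512 and 0.776 CPM in cko a and b, against 0.305, 0.430 and 0.265 CPM in the controls, so the groups did not overlap. Psmb8, of whose exon length 14.7% overlaps Gm20496 on the other strand, was at 0.433 and 0.670 CPM against 0.495, 0.716 and 1.33 CPM. Tap1 and Psmb9 overlap on opposite strands, over 3.9% and 5.8% of their exon lengths, and without a stated strand setting their reads there cannot be told apart.

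Levels can be compared between genes only per length. As RPKM (reads relative to library size and to the kilobases of merged exons) averaged over the 5 libraries, Stat2 at 4.05, Ifit2 at 3.48, Cmpk2 at 2.61 and Bst2 at 2.54 were the highest members, followed by Ifi27 at 1.72, Irf9 at 1.29 and Lgals3bp at 1.27. The other 29 members were below 1 RPKM, down to 0.00977 for Mx1. The members that stood apart in cko b were mostly in this low range, where each library holds few reads: Usp18 was at 0.403 RPKM, Rtp4 at 0.329 RPKM, Oasl1 at 0.155 RPKM and Oas1a at 0.112 RPKM. Among the 4 highest members the gap was present in Bst2 and not in Stat2, Ifit2 or Cmpk2.

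As a description, the promoters on record for the members are shown for the element bound by the complex of Stat2 and Irf9. RefSeq promoter windows (build GRCm38.p6) were found for 26 of the 36 members, in 30 windows. Within the 250 bases before the start, the letters GAAA, any 2 letters and GAAA again, on either strand and with overlapping matches counted, were present in 40.0% of the member windows and in 2.98% of all 32851 windows. By gene, they were present for 12 of 26 members (46.2%), and for 6 of the 10 members with a window for which cko b was at least 2-fold above the next library. For the other members with a window it was 6 of 16. The members were listed as interferon-stimulated genes, so a share above that of all windows follows from the choice. The split by cko b uses values already seen. Neither contrast is a test, and the part of the element in the members' levels was not tested. The letters TTC, any 3 letters and GAA, a site type known from genes that interferon gamma induces, were present in 13.3% of the member windows and in 7.02% of all windows. A match is a description of letters, not a measured binding site, and windows of Irf9, Irf7, Oasl1 and Tap1 held no match to the GAAA repeat.

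The 200 bases before the start are printed 5′ to 3′ on the gene's strand for 5 members that stood at least 2-fold highest in cko b and, last, for Oas3, which did not; capitals mark matches to the GAAA repeat or its reverse complement, and runs of capitals longer than 10 letters hold overlapping matches. The stretches are chr4:156200819-156201018 (minus strand) for Isg15, chr8:71537473-71537672 (minus strand) for Bst2, chr19:34640689-34640888 (plus strand) for Ifit1, chr5:120907526-120907725 (minus strand) for Oas1a, chr7:104465194-104465393 (minus strand) for Trim30a and chr5:120777660-120777859 (minus strand) for Oas3.
Isg15: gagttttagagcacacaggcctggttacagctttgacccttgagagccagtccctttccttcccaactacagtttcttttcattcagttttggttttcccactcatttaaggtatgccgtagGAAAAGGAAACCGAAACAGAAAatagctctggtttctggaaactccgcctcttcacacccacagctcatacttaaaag
Bst2: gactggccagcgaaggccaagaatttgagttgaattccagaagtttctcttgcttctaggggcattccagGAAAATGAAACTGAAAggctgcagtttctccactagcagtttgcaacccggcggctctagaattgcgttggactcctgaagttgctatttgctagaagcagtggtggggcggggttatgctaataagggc
Ifit1: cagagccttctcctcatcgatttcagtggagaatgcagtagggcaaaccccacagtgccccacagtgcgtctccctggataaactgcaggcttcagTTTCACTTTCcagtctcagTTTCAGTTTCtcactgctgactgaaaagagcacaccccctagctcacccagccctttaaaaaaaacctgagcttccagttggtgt
Oas1a: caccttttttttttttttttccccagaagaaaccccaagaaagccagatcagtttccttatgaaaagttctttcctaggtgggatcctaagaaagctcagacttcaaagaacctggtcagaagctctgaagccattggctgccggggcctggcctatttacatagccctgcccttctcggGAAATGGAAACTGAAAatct
Trim30a: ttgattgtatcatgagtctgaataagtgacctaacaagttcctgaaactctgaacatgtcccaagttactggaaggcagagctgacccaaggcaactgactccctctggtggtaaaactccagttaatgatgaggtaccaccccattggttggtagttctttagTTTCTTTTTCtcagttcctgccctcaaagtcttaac
Oas3: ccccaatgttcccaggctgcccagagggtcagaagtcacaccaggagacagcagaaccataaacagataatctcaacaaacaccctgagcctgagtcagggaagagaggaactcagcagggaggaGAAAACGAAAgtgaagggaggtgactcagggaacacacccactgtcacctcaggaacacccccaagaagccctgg
The first match began 78 bases before the start in Isg15, 130 in Bst2, 104 in Ifit1, 20 in Oas1a, 36 in Trim30a and 75 in Oas3. The bases after the RefSeq start were found in a GENCODE transcript of the gene for 21 of the 30 member windows. For Bst2 and Oas1a they were not, so those distances hold for the RefSeq start only. Isg15 holds 3 overlapping matches in a row, and Ifit1 holds 2 that lie apart. Oas3 carries a match although its level in cko b lay within the control range, at 0.564 CPM against 0.530 to 0.686 CPM.

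A list of 49 further genes of the interferon pathway was read in the same fit, and edgeR called 0 of the 34 tested, with a lowest adjusted p of 0.433; DESeq2 and limma-voom called 0 as well. At an unadjusted p under 0.05 in edgeR, 2 of the 34 were higher and 1 was lower, where 5.45% of all genes tested were higher and 5.36% lower. These counts lie near or below those shares. The interferons themselves were not detectable at this depth: 11 of the 12 ligand genes, Ifnb1 among them, were at 0 reads in all 5 libraries, where 0 counts allow up to 0.106 to 0.133 CPM per library, and Ifng had 1 read in control a. Of the 8 receptor and kinase genes tested, edgeR called 0, with 0 at an unadjusted p under 0.05. Ifnar1 was at 51.8 and 64.9 CPM in the cko-labelled libraries a and b, against 47.8, 52.7 and 40.2 CPM in the controls. Jak1, which had the most reads of them, was at 132 and 109 CPM against 95.3, 100.4 and 85.1 CPM (log2 0.36, SE 0.19; edgeR adjusted p = 0.490).

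Tlr3, the endosomal receptor of double-stranded RNA, was at 3.43 and 3.28 CPM in cko a and b, against 1.98, 1.93 and 1.46 CPM in the controls. Here both cko libraries were alike, unlike most members, and the log2 fold change was 0.90 (SE = 0.30, unadjusted p = 0.0126, edgeR adjusted p = 0.433). Socs1, the inhibitor of Jak kinases that interferon normally induces, was at 0.315 and 0.212 CPM in cko a and b, against 0.838, 0.537 and 0.972 CPM in the controls (log2 -1.55, SE 0.53; unadjusted p = 0.0136, edgeR adjusted p = 0.433). Both values of Socs1 rest on 8 and 6 reads and lie below every control.

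Among the enzymes that act on double-stranded RNA, Eif2ak2, the kinase PKR, was at 3.54 and 7.30 CPM in the cko-labelled libraries a and b, against 3.39, 3.58 and 3.98 CPM in the controls. Adar, the editing enzyme with an interferon-driven isoform, was at 27.01 and 54.6 CPM in cko a and b, against 36.3, 38.9 and 29.2 CPM in the controls; 16.8% of its exon length overlaps Chrnb2 on the other strand. In both genes cko b was the highest library and cko a lay within or below the control range. Their log2 fold changes were 0.57 (SE 0.33) and 0.23 (SE 0.28), with edgeR adjusted p of 0.515 and 0.758. Rnaseh2c, which had the most reads of these enzymes, was at 48.2 and 41.8 CPM against 61.9, 46.9 and 75.2 CPM. Irf3 and Traf3, which had the most reads of the transcription factor and sensing lists, were at 54.4 and 48.9 CPM against 52.5, 48.5 and 39.9 CPM, and at 57.2 and 66.4 CPM against 58.7, 58.6 and 45.8 CPM. Of the 34 tested, cko b was the highest library for 12, or 35.3%, against 23.2% of all genes tested. It was at least 2-fold above the next library for 0 of the 34, against 0.434% of all genes tested.

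**Figure D4:**
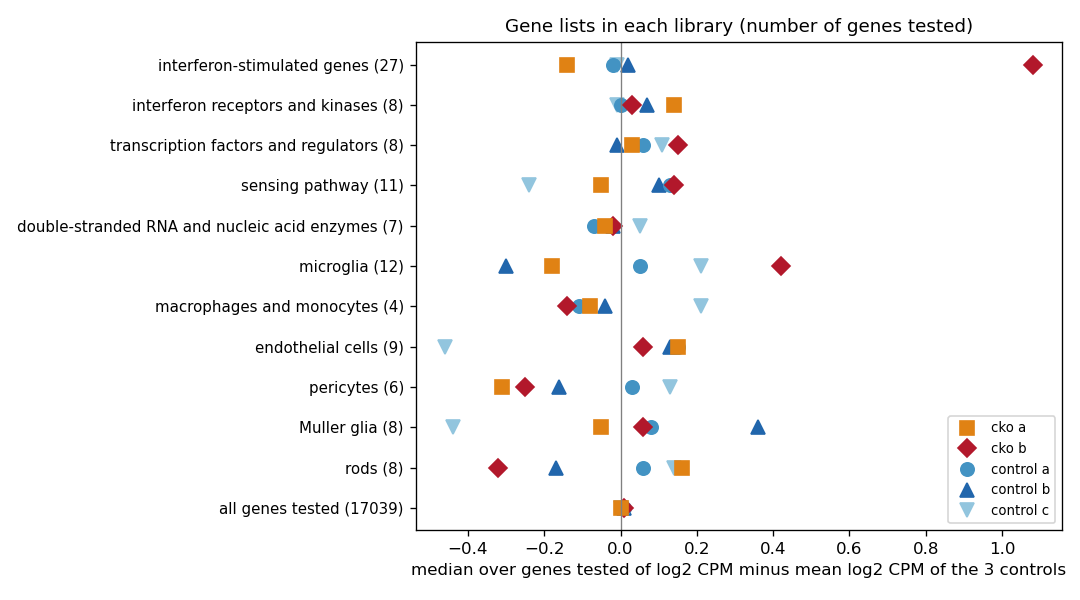
Each symbol is the median over the tested genes of 1 list, in 1 library, of log2 CPM minus the mean log2 CPM of the 3 controls. The interferon-stimulated genes in cko b lie at 1.08, and the next highest point among the lists plotted is the microglia list in cko b at 0.42; of the lists not plotted, connective tissue in control c lay at 1.13 and pigment epithelium in control c at 0.74.

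Levels of other cell types were read beside these values; in whole retina, more cells of a type and more RNA per cell cannot be told apart. The 12 microglial genes summed to 109.6 and 151.6 CPM in the cko-labelled libraries a and b, against 99.2 to 130.0 CPM in the controls. Cko b was the highest library for 9 of the 12, where it was the highest for 23.2% of all genes tested. It was the highest for 66.7% of the interferon-stimulated genes tested, so being highest in cko b was not particular to them. Csf1r, the receptor microglia need to survive, was at 11.8 and 21.6 CPM in cko a and b, against 15.5, 15.8 and 16.9 CPM in the controls, whereas the resident marker P2ry12 was at 5.51 and 4.73 CPM against 5.49, 3.54 and 6.54 CPM. EdgeR called 0 of the 12 microglial genes, with 0 at an unadjusted p under 0.05. Cko b was at least 2-fold above the next library for 0 of them, where it was so for 0.434% of all genes tested. The part of microglia in the members' levels was not tested. The 8 macrophage and monocyte genes summed to 17.4 and 24.4 CPM against 12.8 to 17.9 CPM, mostly through Lyz2. Of the 4 tested, 2 log2 fold changes were above 0 and 2 below. Lyz2 lay above all controls in both cko libraries, at 14.3 and 19.6 CPM against 11.3, 8.23 and 12.2 CPM (log2 0.69, SE 0.25, unadjusted p = 0.0200, edgeR adjusted p = 0.433). Adgre1 was at 1.97 and 4.06 CPM against 2.71, 2.26 and 3.14 CPM. Mrc1, a macrophage gene of that list, lay below all controls in both cko libraries, at 0.197 and 0.141 CPM in cko a and b, against 0.571, 0.859 and 0.884 CPM in the controls (log2 -2.17, SE 0.56; unadjusted p = 0.00244, edgeR adjusted p = 0.377). F13a1 had 0 and 7 reads against 9, 10 and 18. Ccr2 was barely detected in any library, with 0 reads in both cko libraries and 0, 2 and 1 in control a, b and c. The 9 endothelial genes summed to 270.4 and 346.8 CPM against 90.7 to 292.6 CPM, mostly through Kdr, and the 8 lymphocyte genes to 10.3 and 7.86 CPM against 6.97 to 7.29 CPM, with Cd3e and Ly6d at 0 reads in all 5 libraries. The lens list, of which edgeR called 6 of 7 tested genes lower, summed to 66.5 and 19.6 CPM against 657 to 1453 CPM, and the blood list to 127 and 40.9 CPM against 170 to 463 CPM in the controls. Cko b, the library in which the members were highest, was the lowest in both lists, and the part of lens and blood in the members' levels was not tested.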

How the data were processed

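The deposited values are unnormalized whole-number read counts per Ensembl gene. The submitters' processing notes name CASAVA, HISAT2, featureCounts and build mm10; no source used here gives versions, the annotation, how strand was set or how multiply matching reads were handled. Symbols came from a gene name table, lengths and positions from GENCODE M21 (GRCm38). Libraries were grouped by title. The chi-square per degree of freedom between libraries was at least 26.7, so each was kept.

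EdgeR 4.0.16 in R 4.3.3 kept 17039 genes (filterByExpr, minimum count 10, minimum total 15), scaled by TMM and ran the quasi-likelihood F test without covariates; Benjamini-Hochberg adjustment ran over all genes tested, with calls at an adjusted p under 0.05. The SE is the log2 fold change over the square root of F. CPM use TMM-scaled library sizes. Other settings were DESeq2 1.42.0, limma-voom 3.58.1, robust edgeR, 3 other scalings, 2 other filters, the letter as a replicate block, a threshold of 0.1 and each library left out. The steps were tested on simulated data.

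The members and lists were chosen with earlier results of these data known. Values in every library are given for members at an unadjusted p under 0.05 and the most abundant member of each role, and for others by choice after their values were seen. Intervals cover counting error only. Some results are not reported here.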

Additional observations from a re-analysis of the deposited data

How the results depend on the processing

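The number of genes called by edgeR was 17, and 11 with library totals in place of TMM, 39 with the replicate block, 78 with DESeq2 and 262 with no low-count filter; leaving out each library gave 10 to 38. Members called stayed at 0 except with no low-count filter (4), and at 0 throughout when each library was left out; pathway genes called were 0 in every setting. Members at an unadjusted p under 0.05 were 6, and 15 with no low-count filter, 2 when at least 2 libraries had to reach a CPM of 1 (14 members tested), and 3 to 17 when each library was left out, the 17 including 4 of those that passed the filter only without cko a. The members' median log2 of 0.68 ranged from 0.48 (limma-voom) to 0.75 (library totals) with all 5 libraries, and from -0.22 without cko b to 1.25 without cko a, where 5 further members passed the filter only through cko b (1.09 over the same 27); it was also -0.22 with Xaf1 and Ifit3b, at 0 reads in cko a, set to a floor of 3 counts. The summed level was 1.40 times that of the controls, and 1.40 to 1.47 times with other scalings.

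Log2 fold changes took the other sign without 1 library for 13 members: Irf7 (-0.22 to 1.54), Ifit1 (-1.32 to 2.14), Ifit3 (-0.04 to 2.29), Oasl2 (-1.04 to 1.42), Isg15 (-0.14 to 2.07), Usp18 (-0.67 to 2.40), Rsad2 (-0.60 to 1.05), Bst2 (-0.71 to 1.68), Lgals3bp (-0.52 to 0.85) and Gbp3 (-0.24 to 0.86), all without cko b, and Xaf1 (-6.35 to 0.51) without cko a; Ifih1 (-0.56 to 0.11) and Cmpk2 (-0.01 to 0.28) did so without control b, and Ifih1 also, at 0.03, without cko a. Same-lettered libraries correlated at -0.007 (a) and 0.149 (b) in their deviations from the group means. The deviations of cko a and cko b mirror each other, so these values cannot exclude pairing by letter. The labels do not state a pairing, and the main fit did not use the letters. With the replicate block edgeR called 0 members, and 5 had an unadjusted p under 0.05, 4 higher and 1 lower.

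Most members that stood apart in cko b have fewer than 100 reads per library, which limits their precision.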
